A study of Mus musculus with 12 samples.

Results

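The genes of cholesterol synthesis and of sterol sensing, esterification and transport were followed in mouse liver after exposure to an alkylating agent. A list of 32 genes was matched by symbol to the probe sets of the array. Of these, 27 genes had a probe set annotated with that gene alone, out of 12393 genes so named on the array, and 18 of the 27 encode enzymes of the synthesis route. The other 5 listed genes (Acat2, Insig1, Nr1h2, Soat1 and Soat2) were not matched to a probe set here and were not analysed. For each gene the brightest probe set by its 12-array mean was taken, and the remaining 26 probe sets of 16 of these genes were used as a second reading.

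Liver RNA of 12 C57Bl/6J mice aged 6 to 8 weeks was hybridised to 1-colour Affymetrix arrays, with 1 array per animal and 3 animals in each of 4 groups. The groups were untreated wild type, untreated Aag knock-out, wild type given methyl methanesulfonate (MMS), a DNA-methylating agent, and Aag knock-out given MMS. MMS was given as a single intraperitoneal dose of 75 mg/kg and livers were taken 6 hours after it. Aag, whose gene symbol is Mpg, is a DNA glycosylase that removes alkylated bases at the start of base excision repair. Whether control mice were injected, and the hour at which livers were taken, are not stated in the labels.

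Cholesterol is built from acetyl-CoA through HMG-CoA, mevalonate, activated isoprenoids, squalene and lanosterol, and the liver is a main site of this synthesis. Most genes of the route are transcribed under SREBP-2 (encoded by Srebf2), a membrane-bound factor that Scap escorts from the endoplasmic reticulum for activation when sterols are low and that Insig proteins hold back when sterols are high. SREBP-2 binds sterol regulatory elements, often beside sites for NF-Y and Sp1, while oxysterols act through the LXR receptors on genes that export or convert sterols.

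The values were log2 expression on the deposited scale, with array medians between 7.42 and 7.75 and correlations of 0.962 to 0.995 between arrays over all probe sets. Mpg, the targeted gene, was at 6.21 or above in the wild-type arrays and at 5.75 or below in the knock-out arrays at 1 of its probe sets (exact two-sided permutation test, p = 0.005, the smallest that 400 regroupings within treatments allow). Its second probe set differed by -0.31 and the genotypes overlapped there, and the labels do not say how either probe set lies to the deleted part. The 9 measured hepatocyte markers had mean log2 values of 13.71 or above in every array, and limma called 0 of them in either MMS response, with 1 at an unadjusted p under 0.05 in each. In the wild-type MMS response limma called 4 of 8 endothelial, 3 of 6 stellate and 3 of 5 lymphocyte markers lower and 2 of 5 neutrophil markers higher. Of all probe sets 4.45% were called lower and 1.99% higher in that response, and 1.51% were called in that of the knock-out. In wild type 1 of the 6 macrophage markers was called higher and 1 lower, and of the 4 cholangiocyte markers none was called. The mean endothelial marker level was 8.72 to 8.96 in untreated and 8.22 to 8.33 in treated wild type, against 8.54 to 8.75 in untreated and 8.55 to 8.80 in treated knock-out. Stellate markers lay at 9.38 to 10.56 without and 8.54 to 8.87 with MMS in wild type, and at 9.45 to 9.62 without and 9.0 to 9.30 with it in the knock-out. Lymphocyte markers lay at 7.07 to 7.31 without and 6.36 to 6.63 with MMS in wild type, and at 7.35 to 7.64 without and 6.76 to 7.26 with it in the knock-out. Neutrophil markers lay at 5.59 to 5.85 without and 6.40 to 7.32 with MMS in wild type, and at 5.82 to 6.03 without and 6.34 to 7.05 with it in the knock-out. The part of these cells in the results on sterol genes was not tested.

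In wild-type liver MMS was followed by lower RNA levels of many genes along the cholesterol route. Of the 27 genes 11 fell at a limma adjusted p under 0.05 and 0 rose, where 4.45% of all probe sets were called lower and 1.99% higher (6.44% in either direction). An unadjusted p under 0.05 was found for 15 of the 27, against 23.2% of all probe sets. Among the synthesis enzymes 9 of 18 fell: Hmgcs1, Mvk, Pmvk, Fdft1, Lss, Msmo1, Nsdhl, Sc5d and Dhcr7. Outside the synthesis enzymes 2 of 9 fell, Insig2 and Scarb1. The median difference was -0.51 (log2) over the 27 genes and -0.64 over the 18 enzymes, against -0.05 over all probe sets tested. For 16 genes every treated wild-type array was below every untreated one, and for 0 genes above, where 20.5% and 11.3% of all probe sets were so ordered. In bulk tissue a smaller share of cells of a type and less RNA per cell cannot be told apart. Centring each array on its median raised the median difference of all probe sets from -0.05 to 0.14 and left 4 of the 11 calls (Hmgcs1, Mvk, Pmvk and Fdft1), with 19 of the 27 differences below 0 in place of 24. Of all probe sets called in wild type 451 of 1458 were higher as deposited, 836 of 1557 after a further quantile normalization and 1298 of 1784 after median centring. Without 1 array the number called was 3 without untreated array 1, 4 without untreated array 2 and 3 without untreated array 3. It was 4, 7 and 5 without treated wild-type arrays 1, 2 and 3, and 7 without either of the untreated knock-out arrays 1 and 2, which enter through the shared estimate of spread.

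**Figure D1:**
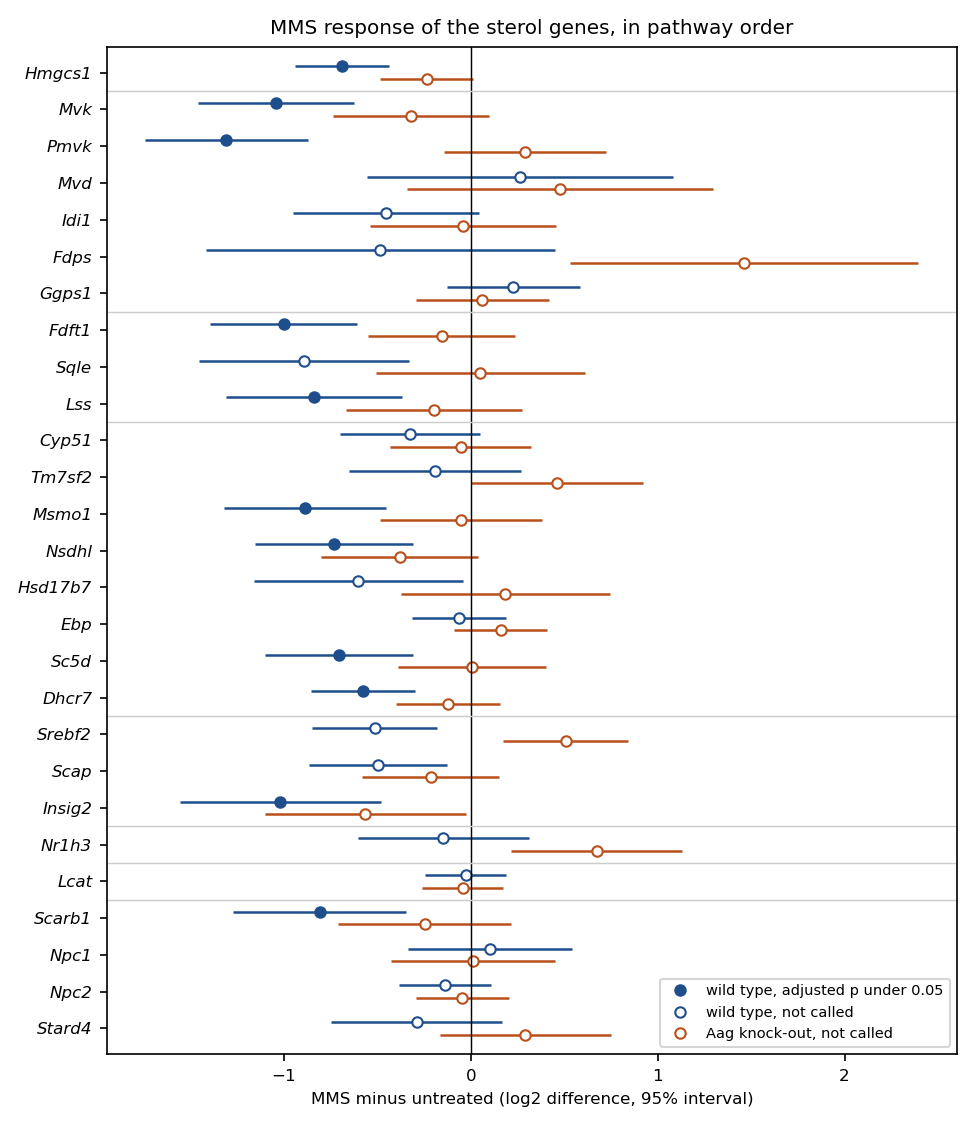
The log2 difference between MMS-treated and untreated liver (horizontal axis, bars give the 95% interval of the limma fit, n = 3 arrays per group) for each of the 27 genes in pathway order (vertical axis), with wild type and Aag knock-out drawn separately. In wild type most points lie left of 0, down to -1.31 for Pmvk, whereas the knock-out points scatter on both sides of 0 with Fdps at 1.46.

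The entry step was read by Hmgcs1, which encodes the cytosolic synthase that makes HMG-CoA. Its log2 values were 13.61, 13.78 and 13.67 in untreated and 12.84, 13.10 and 13.06 in treated wild type, and 13.83, 13.79 and 13.65 in untreated and 13.55, 13.47 and 13.54 in treated knock-out. Every treated wild-type array was below the remaining 9 arrays, and the treated knock-out arrays lay between them and the untreated arrays. Hmgcs1 fell by 0.69 ± 0.11 (SE) in wild type, a 1.61-fold decrease (adjusted p = 0.00893). In the knock-out the difference was -0.24 ± 0.11 and was not called.

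Between mevalonate and the branched isoprenoids, 2 of 6 genes fell in wild type, and both encode kinases. Mvk, mevalonate kinase, was at 9.32, 9.53 and 9.21 without MMS and at 8.07, 8.55 and 8.31 with it in wild type, and at 9.42, 9.32 and 9.17 and then 9.14, 8.58 and 9.23 in the knock-out. The treated wild-type arrays were the lowest of the 12, with treated knock-out array 2 just above them. Mvk fell by 1.04 ± 0.19 in wild type, or 2.06-fold (adjusted p = 0.0132), and differed by -0.32 ± 0.19 in the knock-out.

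Pmvk, phosphomevalonate kinase, had the largest fall among the 27 genes in wild type. It was at 11.74, 11.62 and 12.08 in untreated and 10.06, 10.90 and 10.56 in treated wild type, and at 11.07, 10.95 and 10.85 in untreated and 11.21, 11.31 and 11.22 in treated knock-out. No treated wild-type array reached an untreated one, while in the knock-out all 3 treated arrays were above all 3 untreated arrays. The wild-type decrease was 2.47-fold (-1.31 ± 0.20, adjusted p = 0.0063), and the knock-out difference was 0.29 ± 0.20. The untreated genotypes did not overlap for this gene either, with the knock-out lower by 0.86 on the log2 scale, a difference that was not called (adjusted p = 0.356).

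The other genes of this segment were not called in wild type. Mvd, the decarboxylase that forms isopentenyl diphosphate, differed by 0.26 ± 0.37 with overlapping groups, and Ggps1, which makes the geranylgeranyl group, by 0.23 ± 0.16. At its other probe sets Ggps1 differed by 0.02 with overlap, and by -0.51 (adjusted p = 0.0539) and -0.34 (adjusted p = 0.155) without overlap. Idi1, the isomerase, differed by -0.45 ± 0.23, and its treated wild-type arrays (11.28, 11.95 and 11.92) were below its untreated ones (11.97, 12.54 and 12.01). Fdps, the farnesyl diphosphate synthase, ranged from 9.06 to 12.02 over the 12 arrays. Its wild-type arrays were at 10.18, 10.51 and 10.44 without and 9.06, 10.64 and 9.99 with MMS, and its knock-out arrays at 10.19, 10.25 and 9.67 without and 12.02, 11.89 and 10.57 with it. The wild-type groups overlapped (-0.48 ± 0.42), and in the knock-out treated arrays 1 and 2 stood more than 1 log2 unit above array 3.

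From farnesyl diphosphate to lanosterol, 2 of 3 genes fell in wild type. Fdft1, squalene synthase, was at 11.89, 12.20 and 12.18 in untreated and 10.85, 11.08 and 11.34 in treated wild type, against 12.10, 12.14 and 12.15 and then 12.04, 11.63 and 12.25 in the knock-out. Its fall was 2.00-fold (-1.0 ± 0.18, adjusted p = 0.0123) in wild type, and the knock-out difference was -0.16 ± 0.18. Lss, lanosterol synthase, went from 10.71, 10.68 and 11.05 to 9.87, 9.98 and 10.08 in wild type (-0.84 ± 0.21, adjusted p = 0.0440), and from 10.37, 10.40 and 10.49 to 10.48, 9.65 and 10.55 in the knock-out. Treated knock-out array 2 held the lowest Lss value of all 12 arrays, and the other two treated knock-out arrays were within or above the range of the untreated ones.

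Sqle, squalene epoxidase, which catalyses a rate-controlling oxygenation, was at 9.82, 10.61 and 10.49 in untreated and 9.17, 9.44 and 9.64 in treated wild type. The groups did not overlap, but the difference of -0.89 ± 0.25 did not pass the threshold (adjusted p = 0.0621). Its knock-out arrays were at 10.46, 10.54 and 10.65 without and 10.99, 10.09 and 10.72 with MMS, all above every treated wild-type array.

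In the steps from lanosterol to cholesterol, 4 of 8 genes fell in wild type and all 8 differences were below 0, of which those of Tm7sf2 (0.0015) and Ebp (0.13) were above 0 with median centring. Msmo1, the sterol C4-methyl oxidase, was at 11.31, 11.80 and 11.26 in untreated and 10.23, 10.74 and 10.75 in treated wild type, and at 11.78, 11.56 and 11.84 and then 11.92, 11.49 and 11.61 in the knock-out (wild-type difference -0.89 ± 0.20, adjusted p = 0.0259). The treated wild-type arrays were the lowest 3 of the 12.

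Nsdhl, its partner dehydrogenase in C4 demethylation, moved from 11.47, 11.96 and 11.66 to 10.59, 11.12 and 11.18 in wild type (-0.73 ± 0.19, adjusted p = 0.0472), with knock-out arrays between 11.44 and 12.10. Sc5d, the lathosterol desaturase, was at 12.18, 12.22 and 12.53 in untreated and 11.26, 11.92 and 11.64 in treated wild type (-0.70 ± 0.18, adjusted p = 0.0432), with knock-out arrays between 12.03 and 12.41. Dhcr7, the reductase of the last step of one branch, was at 12.84, 12.85 and 12.89 in untreated and 12.06, 12.42 and 12.38 in treated wild type (-0.57 ± 0.13, adjusted p = 0.0257), with knock-out arrays between 12.57 and 12.89. For these 3 genes every treated wild-type array was below the other 9 arrays.

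The other 4 genes of this segment were not called. Hsd17b7, the C3 ketoreductase, differed by -0.60 ± 0.25 in wild type without overlap between treated (7.27, 7.98 and 8.02) and untreated arrays (8.16, 8.71 and 8.21). Cyp51, the lanosterol demethylase, differed by -0.32 ± 0.17, Tm7sf2, a sterol C14 reductase, by -0.19 ± 0.21, and Ebp, the sterol isomerase, by -0.06 ± 0.11, each with overlapping groups. At its other probe sets Cyp51 was lower without overlap, by -0.58 (adjusted p = 0.0883) and -0.63 (adjusted p = 0.108), and was not called. Ebp varied little over the whole set, from 12.93 to 13.27.

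**Figure D2:**
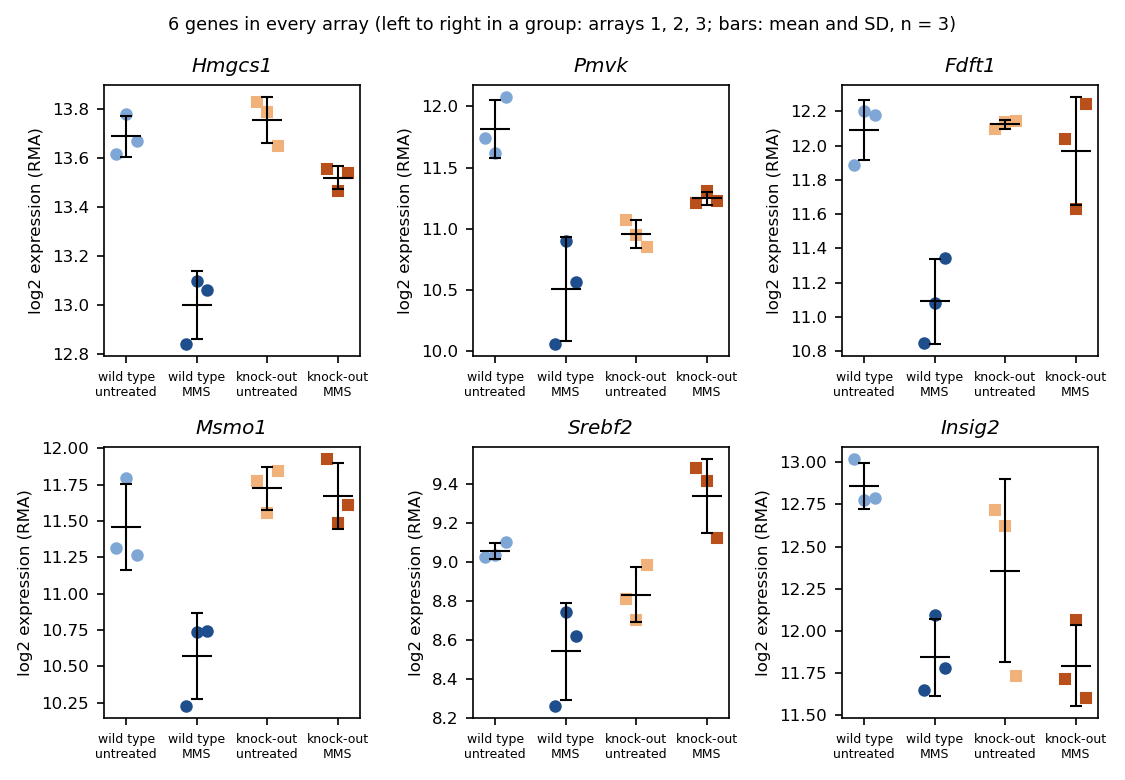
Log2 expression (vertical axis) of 6 genes in every array, by group (horizontal axis), with the mean and SD of 3 arrays. Hmgcs1, for example, lies at 12.84 to 13.10 in treated wild type and at 13.47 or above in the other groups, while Insig2 is low in both treated groups and in 1 untreated knock-out array.

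Of the 3 sterol-sensing genes measured, 1 was called in wild type. Insig2, which retains Scap in the endoplasmic reticulum, was at 13.02, 12.78 and 12.79 in untreated and 11.65, 12.09 and 11.78 in treated wild type, and at 12.72, 12.62 and 11.73 in untreated and 11.72, 12.06 and 11.60 in treated knock-out. It fell by 1.02 ± 0.24 in wild type, or 2.03-fold (adjusted p = 0.0353). The knock-out difference was -0.56 ± 0.24 (adjusted p = 0.184). Untreated knock-out array 3 was at the level of the treated arrays, and without it the knock-out difference was -0.88 and was called (adjusted p = 0.0385), where 3.59% of all probe sets were called in that fit. At another Insig2 probe set the knock-out groups overlapped and differed by 0.15 ± 0.33.

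Srebf2 was at 9.03, 9.04 and 9.10 in untreated and 8.26, 8.74 and 8.62 in treated wild type, and at 8.81, 8.70 and 8.98 in untreated and 9.48, 9.42 and 9.13 in treated knock-out. The treated arrays were all below the untreated ones in wild type and all above them in the knock-out. Neither change was called (-0.51 ± 0.15, adjusted p = 0.0693, and 0.51 ± 0.15, adjusted p = 0.0871). Scap differed by -0.50 ± 0.17 in wild type without overlap (adjusted p = 0.104), and by -0.21 ± 0.17 in the knock-out.

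Among the genes of oxysterol response, esterification and transport, Scarb1 was the 1 of 6 that was called in wild type. Scarb1 encodes SR-BI, the receptor that takes up cholesterol esters from HDL. It was at 11.84, 11.63 and 11.43 in untreated and 10.49, 10.98 and 11.01 in treated wild type (-0.81 ± 0.21, adjusted p = 0.0460), and at 11.60, 11.48 and 11.34 and then 11.15, 11.65 and 10.89 in the knock-out. The wild-type groups were separate and the knock-out groups overlapped. Nr1h3, which encodes LXR alpha, was at 9.37, 9.27 and 9.38 in untreated and 8.84, 9.51 and 9.23 in treated wild type, with overlap (-0.15 ± 0.21). In the knock-out its treated arrays (9.89, 10.12 and 9.41) were above the untreated ones (8.97, 9.07 and 9.35), with a difference of 0.68 ± 0.21 that was not called (adjusted p = 0.0927).

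Lcat, the plasma enzyme that esterifies cholesterol on HDL, stayed between 13.12 and 13.30 in all arrays (wild-type difference -0.03 ± 0.10). The lysosomal exporters Npc1 and Npc2 differed by 0.10 ± 0.20 and -0.14 ± 0.11 in wild type, and Stard4, a cytosolic sterol carrier, by -0.29 ± 0.21, all with overlapping groups.

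In Aag knock-out liver limma called 0 of the 27 genes after MMS at an adjusted p under 0.05, where 1.51% of all probe sets were called (0.747% higher and 0.76% lower), and 5 of the 27 had an unadjusted p under 0.05, against 24.8% of all probe sets. Differences were above 0 for 13 genes (9 with median centring, 10 with quantile normalization) and below 0 for 14, with a median of -0.04 over the 27 genes and -0.06 over all probe sets. Groups did not overlap for 5 genes that were higher (Pmvk, Fdps, Ebp, Srebf2 and Nr1h3) and 2 that were lower (Hmgcs1 and Lcat), where 12.9% and 13.8% of all probe sets were so ordered. The largest difference was that of Fdps, at 1.46 ± 0.42 at its chosen probe set (adjusted p = 0.0831). Averaged over both genotypes, 8 genes were called lower and 0 higher, where 6.66% of all probe sets were called lower and 4.61% higher: Hmgcs1, Mvk, Pmvk, Fdft1, Nsdhl, Dhcr7, Insig2 and Scarb1.

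Treated knock-out array 3 differed from arrays 1 and 2 for several of these genes, and so did a measure of RNA or labelling quality. The 5' minus 3' signal of the control probe sets was -1.61 and -1.51 in treated knock-out arrays 1 and 2, -2.46 in array 3, and between -2.66 and -2.0 in the 9 arrays of the other groups. Fdps, Srebf2 and Nr1h3 were all highest in those 2 arrays. Tm7sf2 showed the same order in the treated knock-out, at 12.89 and 12.96 against 12.40, and Stard4 at 11.01 and 10.88 against 10.51. With this signal as a covariate the knock-out differences changed from 1.46 to 0.51 for Fdps, from 0.51 to 0.21 for Srebf2, from 0.68 to 0.18 for Nr1h3, from 0.46 to 0.01 for Tm7sf2 and from 0.29 to -0.14 for Stard4. Without treated knock-out array 3 the differences were 1.93 for Fdps (adjusted p = 0.0143), 0.87 for Nr1h3 (adjusted p = 0.0207) and 0.62 for Srebf2 (adjusted p = 0.0302), and these 3 genes were called. In that fit 14.4% of all probe sets were called, a share no lower than 3 of 27. Of the 4 cholangiocyte markers 1, Krt19, was called higher in the knock-out response with all arrays, where 0.747% of all probe sets were called higher. It was at 6.45, 6.94 and 6.15 without and 8.58, 9.23 and 7.41 with MMS. The mean of those markers was 7.16 to 7.38 in untreated knock-out and 7.86, 8.12 and 7.42 in treated arrays 1, 2 and 3, and the part of such cells was not tested. In wild type the covariate left all 11 calls in place and added Srebf2 (-0.52, adjusted p = 0.0172).

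**Figure D3:**
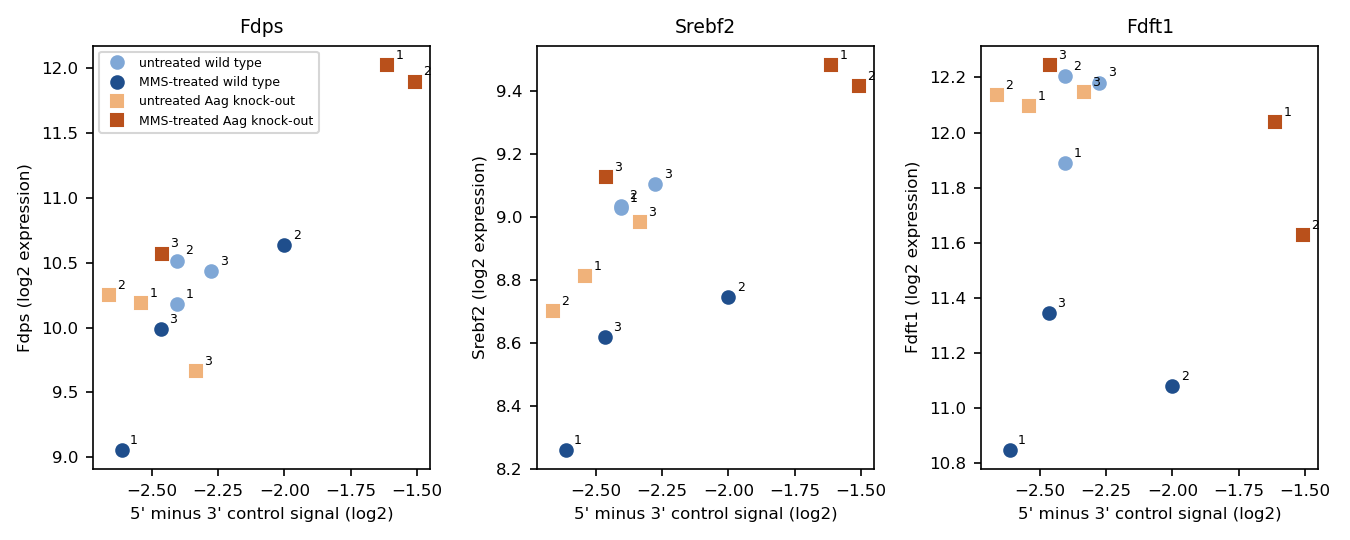
Log2 expression of sterol genes (vertical axes) against the 5' minus 3' signal of the control probe sets (horizontal axis, log2 difference), with each point 1 of the 12 arrays, coloured by group. Treated knock-out arrays 1 and 2, at -1.61 and -1.51, stand to the right of all others, and Fdps is at 12.02 and 11.89 there.

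Between the treated genotypes the knock-out values were higher for 25 of the 27 genes, with a median difference of 0.52 against 0.02 over all probe sets. This comparison uses the same treated wild-type arrays as the wild-type response, so they are not independent. Limma called 0 of the 27 at an adjusted p under 0.05, where 0.0177% of all probe sets were called, and 18 of the 27 had an unadjusted p under 0.05, against 18.4% of all probe sets. The 3 knock-out arrays were all above the 3 wild-type arrays for 14 genes and all below for 0, where 9.92% and 7.71% of all probe sets were so ordered. These were 11 enzymes (Hmgcs1, Mvk, Pmvk, Idi1, Fdft1, Sqle, Cyp51, Msmo1, Nsdhl, Sc5d and Dhcr7) and Srebf2, Scap and Npc1.

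Fdps had the largest difference between the treated genotypes (1.60 ± 0.42), and its groups overlapped. Sqle was higher in treated knock-out by 1.18 ± 0.25 (adjusted p = 0.0940), Msmo1 by 1.10 ± 0.20 (adjusted p = 0.0793) and Fdft1 by 0.88 ± 0.18 (adjusted p = 0.0874). Srebf2 differed by 0.80 ± 0.15 (adjusted p = 0.0793). With median centring 21 of the 27 differences were above 0. Without treated knock-out array 3, 6 of the 27 were called: Hmgcs1 (adjusted p = 0.0492), Fdps (0.0261), Fdft1 (0.0472), Msmo1 (0.0306), Srebf2 (0.0254) and Nr1h3 (0.0465). In that fit 4.94% of all probe sets were called. It kept treated knock-out arrays 1 and 2, whose 5' minus 3' signals were -1.61 and -1.51. With this signal as a covariate, and all arrays kept, 0 of the 27 were called, where 0.0177% of all probe sets were. An unadjusted p under 0.05 was then found for 11 of the 27, against 12.2% of all probe sets. Of the 27 differences 24 were above 0 with the covariate.

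Between the untreated genotypes the median difference over the 27 genes was -0.07 (knock-out minus wild type), against -0.02 over all probe sets. Limma called 0 of the 27, where 0.0398% of all probe sets were called, and 2 had an unadjusted p under 0.05, against 7.16% of all probe sets. Knock-out arrays were all below wild-type arrays for 5 genes (Pmvk, Lss, Ebp, Srebf2 and Insig2) and all above for Npc1, where 10.8% and 7.52% of all probe sets were so ordered. Npc1 was at 9.64, 9.52 and 9.56 in untreated wild type and at 10.02, 9.67 and 10.59 in untreated knock-out, a difference of 0.52 ± 0.20 (adjusted p = 0.592).

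The responses of the genotypes were compared directly by an interaction term. Limma called 0 of the 27 genes and 0% of all probe sets, and 12 of the 27 had an unadjusted p under 0.05, against 17.7% of all probe sets. The knock-out response exceeded that of wild type for 24 of 27 genes (21 with median centring), with a median of 0.56 against 0.05 over all probe sets. The largest differences of the responses were those of Fdps (1.95 ± 0.60, adjusted p = 0.170), Pmvk (1.60 ± 0.28, adjusted p = 0.0716) and Srebf2 (1.02 ± 0.21, adjusted p = 0.103). A difference between the genotypes in the response of a single gene was thus not shown at this threshold. The 95% interval of the difference was 0.99 to 2.21 for Pmvk and 0.55 to 1.5 for Srebf2, unadjusted. Both genes were named for the size of this difference among the 27. At the second probe set of Srebf2 the difference was 0.18, with an interval of -0.45 to 0.81.

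Across arrays, the 3 treated wild-type arrays held the 3 lowest of the 12 values for 10 genes: Hmgcs1, Mvk, Idi1, Fdft1, Sqle, Msmo1, Nsdhl, Sc5d, Dhcr7 and Scap. Treated wild-type array 1 was the lowest of all 12 for 22 of the 27 genes, 15 of them enzymes, and the lowest of its group for 26. That array also had the lowest median over all probe sets (7.42). The shares of all probe sets with these orders were not counted, so the counts cannot be set against a background. The mean over the 18 enzymes was 11.08 to 11.40 in untreated and 10.37 to 10.90 in treated wild type, with 10.37 in array 1 and 10.80 and 10.90 in arrays 3 and 2. In the knock-out it was 11.12 to 11.27 without and 11.16 to 11.47 with MMS. Treated wild type was thus the only group whose enzyme means did not reach those of the others, with or without array 1.

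Genes of the circadian clock also differed between the groups. A clock score was taken as the mean of genes that peak in the evening minus that of genes that peak at dawn, on log2 values centred per gene. It was -2.81 to -2.44 in untreated wild type, 1.16 to 1.33 in treated wild type and 0.93 to 1.70 in treated knock-out. Untreated knock-out arrays 1, 2 and 3 were at -0.83, -1.19 and 1.91. At its chosen probe set Insig2 was separated by these scores: it was 12.62 to 13.02 in the 5 arrays with a score below 0 and 11.60 to 12.09 in the 7 arrays with a score above 0. A second Insig2 probe set was separated likewise (12.05 or above, and 11.27 or below). The remaining Insig2 probe set was not, since treated knock-out array 2 was at 12.57 there, within the 12.23 to 12.78 of the arrays with a score below 0. Treated knock-out array 1 was just below that range, at 12.10. The enzyme means were not separated by the score: the 4 knock-out arrays with a score above 0 had enzyme means of 11.12 to 11.47, and the 3 wild-type arrays with such a score had 10.37 to 10.90. With the score as a covariate limma called 0 of the 27 genes and 0 of all probe sets in wild type, with 9 of the 27 and 17.4% of all probe sets at an unadjusted p under 0.05. The wild-type difference of Insig2 then turned to 0.23 (adjusted p = 0.762), and 5 of the 27 differences were above 0 in place of 3. Of the other 10 genes called without the covariate, Lss (-1.24), Msmo1 (-1.27), Fdft1 (-1.23) and Sc5d (-0.81) had larger negative differences with it. Smaller differences remained for Pmvk (-1.16), Mvk (-0.98), Hmgcs1 (-0.55), Nsdhl (-0.43), Scarb1 (-0.40) and Dhcr7 (-0.40). Since treated and untreated wild-type arrays are fully separate in the score, the score and MMS cannot be told apart in wild type.

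**Figure D4:**
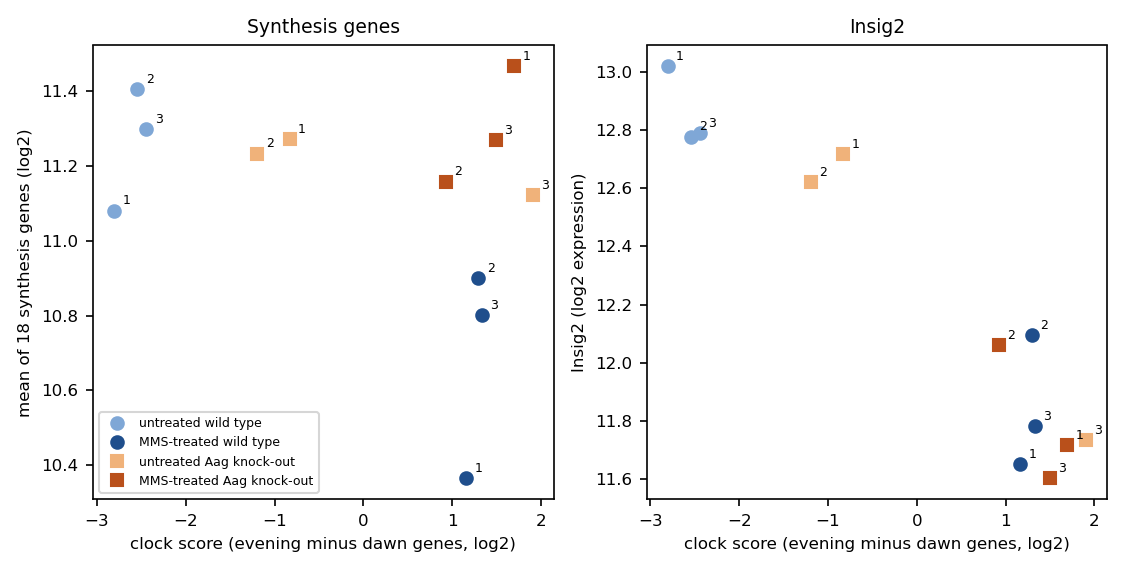
The mean log2 expression of the 18 synthesis enzymes and the log2 expression of Insig2 (vertical axes) against the clock score (horizontal axis, log2 units), 1 point per array, coloured by group. Knock-out arrays with scores of 0.93 to 1.91 keep enzyme means of 11.12 or above, whereas Insig2, at its chosen probe set, is at 12.09 or below in every array with a score above 0.

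Further probe sets of the same genes gave a second reading on the same arrays. In wild type 21 of 26 had the same sign as the chosen probe set, 8 were called lower and 0 higher, and for 16 the groups did not overlap, all with treated arrays lower. Of all probe sets 4.45% were called lower and 1.99% higher there, and 20.5% were lower without overlap. Of the 11 genes that fell in wild type, 7 had further probe sets, 14 in all, of which 12 had the same sign there, 8 were called lower and 0 were called higher. In the knock-out 16 of 26 had the same sign and 1 was called lower, where 0.76% of all probe sets were called lower. There the groups did not overlap for 8 that were lower and 2 that were higher, where 13.8% and 12.9% of all probe sets were so ordered. Between the treated genotypes 17 of 26 had the same sign, 0 were called (0.0177% of all probe sets), and 8 were higher without overlap (9.92% of all probe sets). Hmgcs1 was read by 4 probe sets, which fell by 0.69, 0.77, 0.81 and 1.70 in wild type.

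The Hmgcs1 probe set with the largest wild-type change also fell in the knock-out. It was at 11.67, 12.08 and 11.75 in untreated and 9.96, 10.38 and 10.05 in treated wild type, and at 12.22, 11.82 and 11.50 in untreated and 10.92, 10.61 and 10.92 in treated knock-out. Treated and untreated arrays were separate in both genotypes. The knock-out difference was -1.03 ± 0.20 (adjusted p = 0.0408), against -0.24, -0.36 and -0.51 at the other Hmgcs1 probe sets, and it was the only call among the 26 further probe sets in the knock-out. The positions of the probe sets on the transcript are not stated in the files.

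For Fdft1 a second probe set fell as well (-0.91, adjusted p = 0.00858), while 2 others with mean log2 values of 6.00 and 5.43 differed by 0.29 and 0.48 and were not called. The second probe set of Mvk, with a mean log2 value of 6.76, differed by -0.01 ± 0.17 in wild type (adjusted p = 0.970) with overlapping groups, against -1.04 at the chosen one. Srebf2, which was not called, differed by -0.01 ± 0.20 in wild type and 0.17 ± 0.20 in the knock-out at its second probe set (mean 6.25), again with overlap. The second probe set of Fdps had a mean log2 value of only 3.13. It differed by 0.25 ± 0.23 in wild type, -0.14 ± 0.23 in the knock-out and -0.51 ± 0.23 between treated genotypes, with overlapping groups. Its responses differed by -0.39 ± 0.33, against 1.95 at the chosen probe set, and none of these was called. Insig2 had wild-type differences of -1.19 (adjusted p = 0.0329) and -1.06 (adjusted p = 0.0783) at its other probe sets. Lss differed by -0.83 (adjusted p = 0.0359) and -0.53, Sc5d by -1.33 (adjusted p = 0.0418) and Scarb1 by -0.67 (adjusted p = 0.0244) and -0.70. The chosen probe sets of Mvd, Ggps1, Fdft1 and Scarb1 carry the suffix s or x, which marks probes that may match further transcripts.

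**Figure D5:**
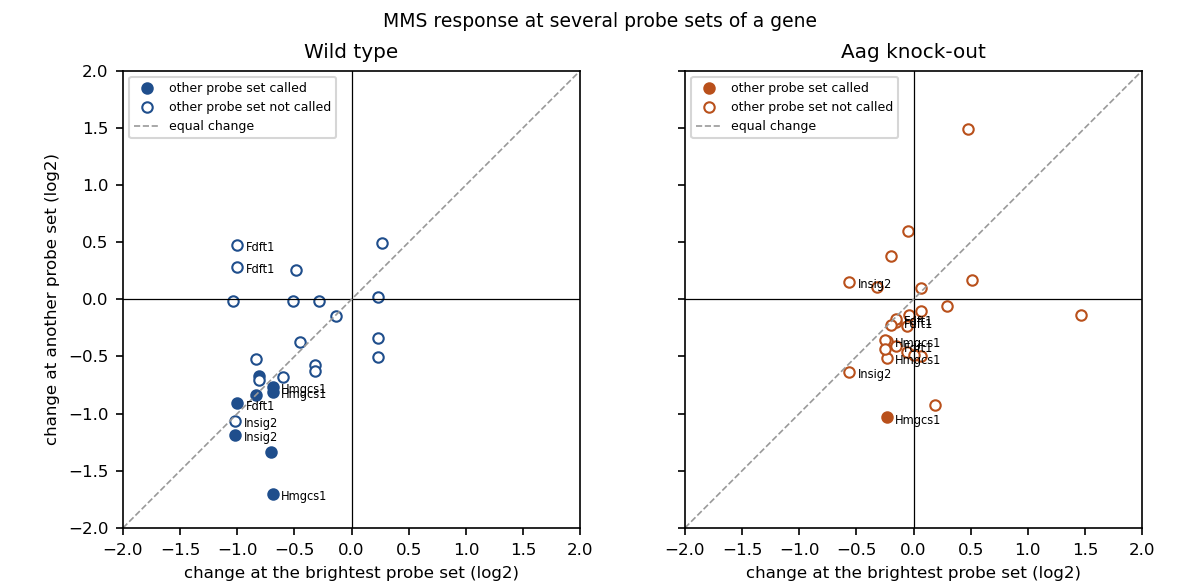
The MMS difference (log2) at further probe sets (vertical axis) against that at the chosen probe set of the same gene (horizontal axis), in wild type and in the knock-out, with a dashed line of equal change. In wild type 21 of 26 points share the sign of the chosen probe set, and Hmgcs1 reaches -1.70 at 1 of its probe sets. In the knock-out 16 of 26 share it.

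Promoters were read from RefSeq (GRCm38.p6), in windows from 250 bases before to 50 bases after each start, since many of these genes fell together in wild type. The table held 28 windows of 21 of the 27 genes, without Fdps, Fdft1, Sqle, Scarb1, Npc1 and Stard4. Exact matches on both strands were counted for CCAAT, the NF-Y box, GGGCGG, the Sp1 box, CACGTG, an E-box, and TCACNCCAC, a form of the sterol regulatory element. The stretches below, from 200 bases before to the base before the start and read along the gene's strand, show 3 genes that fell in wild type and Ebp, which was not called. Capitals mark matches to CCAAT and to TCACNCCAC on either strand.
Hmgcs1 (chr13:119690151-119690350, plus strand): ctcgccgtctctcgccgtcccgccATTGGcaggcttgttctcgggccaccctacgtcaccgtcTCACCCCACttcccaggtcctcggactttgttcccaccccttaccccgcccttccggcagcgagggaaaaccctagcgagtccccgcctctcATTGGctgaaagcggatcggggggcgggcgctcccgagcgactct
Mvk (chr5:114444069-114444268, plus strand): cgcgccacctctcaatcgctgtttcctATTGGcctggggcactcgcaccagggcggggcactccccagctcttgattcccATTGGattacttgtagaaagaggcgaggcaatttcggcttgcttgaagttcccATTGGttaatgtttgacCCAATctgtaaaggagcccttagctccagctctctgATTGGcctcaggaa
Nsdhl (chrX:72918321-72918520, plus strand): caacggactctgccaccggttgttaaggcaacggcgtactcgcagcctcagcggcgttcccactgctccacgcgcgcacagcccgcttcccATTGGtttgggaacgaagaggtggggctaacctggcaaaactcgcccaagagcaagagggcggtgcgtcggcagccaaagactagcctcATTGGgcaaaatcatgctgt
Ebp (chrX:8193513-8193712, minus strand): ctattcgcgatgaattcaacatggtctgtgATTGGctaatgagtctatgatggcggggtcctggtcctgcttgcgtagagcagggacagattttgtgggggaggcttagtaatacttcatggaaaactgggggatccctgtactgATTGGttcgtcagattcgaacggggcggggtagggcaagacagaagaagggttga

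The single match to TCACNCCAC among the 21 genes was TCACCCCAC in Hmgcs1, at position -137 from the start, where 1.5% of 9887 genes of the array with a promoter in the table had such a match. CCAAT was present in 19 of the 21 genes (90.5%, against 42.3% of the 9887 genes), and only Scap and Nr1h3 had none. By window the shares were 67.9% of 28 and 37.1% of 12566. GGGCGG was present in 17 genes (81.0%, against 61.0%) and CACGTG in 4 (19%, against 10.8%). The CCAAT box was found in 9 of the 9 genes called lower in wild type and in 10 of the 12 not called, among them Ebp, Mvd and Ggps1, so its presence did not separate the called genes from the others. Sequences that differ from these letters were not counted.

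Lists of neighbouring genes were read in the same fit, where 4.45% of all probe sets were called lower in wild type and 1.99% higher. An unadjusted p under 0.05 was found there for 23.2% of all probe sets. Of 8 measured genes of SREBP activation and sterol-regulated degradation 0 were called in wild type, with 2 at an unadjusted p under 0.05. Their median difference was 0.26. Of 8 measured genes on the branches to dolichol and prenyl groups 1 rose, Nus1, a subunit of the dolichol-forming transferase (0.53 ± 0.13, adjusted p = 0.0393). The listed genes of the ubiquinone branch, Pdss1, Pdss2 and Coq2, were not matched to a probe set. Of 3 redox partners of the sterol enzymes 0 were called, and 0 had an unadjusted p under 0.05.

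Of 10 LXR targets 3 fell in wild type, where 4.45% of all probe sets were called lower and 1.99% higher. These were Srebf1, the regulator of lipid synthesis (-1.42 ± 0.27, adjusted p = 0.0161), Lpl, a lipoprotein lipase (-1.06 ± 0.22, adjusted p = 0.0227), and Abcg1, a sterol exporter (-0.86 ± 0.19, adjusted p = 0.0239). Abcg1 differed by a like amount in the knock-out (-0.82 ± 0.19, adjusted p = 0.0547). Of 11 genes of sterol conversion and lysosomal handling 1 fell, Lipa, the lysosomal acid lipase (-0.79 ± 0.14, adjusted p = 0.0128). Of 15 fatty acid synthesis genes under SREBP control 2 fell, Scd2, a desaturase (-1.42 ± 0.14, adjusted p = 0.00186), and Acss2, which activates acetate (-0.61 ± 0.13, adjusted p = 0.0233), and the median was -0.29. Of 11 genes of feeding and fasting 1 rose, the hormone gene Fgf21 (0.59 ± 0.13, adjusted p = 0.0261). Of the same list 3 fell: Pdk4, a kinase that restrains pyruvate oxidation (-1.77 ± 0.19, adjusted p = 0.00214), Ppargc1a, a coactivator of fasting genes (-1.62 ± 0.32, adjusted p = 0.0172), and G6pc, which releases glucose (-1.38 ± 0.34, adjusted p = 0.0394). In the knock-out 0 genes of these 7 lists were called by limma, with 0 to 4 per list at an unadjusted p under 0.05. Of all probe sets 1.51% were called there and 24.8% had an unadjusted p under 0.05.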

How the data were processed

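Expression was deposited as log2 values, 1 for each probe set on each array, which the authors computed with RMA, per the submitters' processing notes. RMA corrects background, normalizes and summarises probes. Its version is not stated, and the log base was taken from the range of the values. A change common to most genes can be removed by such normalization, but the array medians still differed between groups. They were 7.63 to 7.75 in untreated and 7.42 to 7.53 in treated wild type. In the knock-out they were 7.48 to 7.71 without and 7.63 to 7.68 with MMS. No detection calls came with the values.

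Of 22690 probe sets, 64 controls were set aside and 22626 were fitted in limma 3.58.1 (R 4.3.3). The model had 1 mean for each of the 4 groups of 3 arrays and 8 residual degrees of freedom, and p-values were adjusted by Benjamini-Hochberg over all probe sets fitted at a threshold of 0.05. Errors beside differences are standard errors of this fit, which was tested on simulated data. Gene names came from the platform annotation, with 20351 symbols updated through a RefSeq gene table (GRCm38.p6), and probe sets with several symbols were not used. All member genes are named, with values in every array for those called in any comparison or leading a step, and up to 4 called genes of each further list.

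The genes, the 16 lists and the tests were chosen with earlier results of these data known. Replicates are separate animals by their titles. Animal numbers recur in each group, but same-numbered arrays did not deviate together (r = -0.475 to 0.403 over 18 pairs of arrays), so they were not treated as pairs in the main fit. Alternatives were 2 filters on low values, 2 other scalings, another variance model, array weights, the compared groups alone, averaging all probe sets of a gene, 2 covariates, leaving out each array or both knock-out arrays numbered 3, and the animal number as a block. A pseudocount was not used, as the values are log2.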

Additional observations from a re-analysis of the deposited data

Results flagged for a closer look

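For 2 genes every MMS-treated array was below every untreated array in wild type and above every untreated array in the Aag knock-out. Of all probe sets 20.5% were lower without overlap in wild type and 12.9% were higher without overlap in the knock-out. The share with both orders was not counted, so the 2 genes cannot be set against a background. For Pmvk the responses differed by 1.60 (log2, knock-out minus wild type; limma interaction term, adjusted p = 0.0716), with the untreated knock-out already lower than the untreated wild type by 0.86. For Srebf2 they differed by 1.02 (adjusted p = 0.103). Neither difference passed the threshold, and with both knock-out arrays numbered 3 left out both did (adjusted p = 0.0499 for Pmvk, 0.0415 for Srebf2), where 2.27% of all probe sets were called in place of 0%. With the 5' to 3' covariate the differences were 1.37 for Pmvk (adjusted p = 0.172) and 0.72 for Srebf2 (adjusted p = 0.189). At the second probe set of Srebf2 the difference was 0.18 (adjusted p = 0.776) and the groups overlapped in both genotypes. Groups of 3 arrays were not searched for outlying samples.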

How the results depend on the processing

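Of the 19 called differences of single genes, 446 of 448 values under the alternatives kept their sign. The exceptions were those of Insig2 in the fit with the clock score as a covariate, at 0.23 in wild type and 0.064 averaged over both genotypes. Over all genes and comparisons 3606 of 3834 values kept their side of the threshold, 134 lost a call and 92 gained one. The other 2, those of Insig2, lost the call with a change of sign. A value called in neither fit was counted as kept even where its sign changed. In the wild-type response 11 genes were called as deposited, 4 with median centring, 6 with the compared groups alone and 0 with the clock covariate, and between 3 and 11 with 1 array left out. Its median of -0.51 became -0.32 with median centring and lay between -0.64 and -0.36 with 1 array left out. In the knock-out response 0 genes became 3 with the stricter filter (probe sets above the 0.5 quantile of the means), 5 with array weights and 4 without both knock-out arrays 3, while 14.8%, 25.6% and 14.7% of all probe sets were called, and 0 to 3 with 1 array left out (median -0.06 to 0.02). Averaged over genotypes 8 became 4 with median centring, 5 with the 5' to 3' covariate and 0 with the clock covariate, and 4 to 8 with 1 array left out (median -0.32 to -0.14). Between untreated genotypes 0 became 1 with array weights (0.804% of all probe sets) and stayed 0 with any 1 array left out (median -0.11 to 0.04). Between treated genotypes 0 became 2 with the milder filter (0.25 quantile), 5 with the stricter one, 3 with a trended robust variance, 10 with array weights and 5 without both knock-out arrays 3 (0.471%, 1.77%, 0.283%, 6.55% and 5.98% of all probe sets, in this order), and 0 to 6 with 1 array left out. The median there was 0.35 with median centring and 0.34 to 0.70 with 1 array left out. For the difference of the responses 0 became 1 with the stricter filter, 1 with the trended variance, 5 with array weights and 2 without both knock-out arrays 3 (0.38%, 0.124%, 10.4% and 2.27% of all probe sets), and stayed 0 with any 1 array left out. The median there was 0.30 with median centring, 0.39 with the 5' to 3' covariate and 0.37 to 0.64 with 1 array left out. The animal number as a replicate block matches same-numbered arrays across groups, although the labels do not say that these animals are linked. With this block 8 genes were called in wild type (without Nsdhl, Sc5d and Scarb1), 6 averaged over genotypes and 0 in the other comparisons. The cause of these changes was not tested, except that the filters leave fewer probe sets to adjust over and each left-out array leaves fewer samples. The number of arrays, 3 per group, limits the precision, and signal over background could not be judged. The number of all probe sets called in wild type was 1458 as deposited, 0 with the clock covariate, 274 without untreated wild-type array 1 and 4873 with array weights.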
